A study of Mus musculus with 8 samples.

Results

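Genes of the cilium and of left-right laterality were examined in the left and right heart field of single mouse embryos. The 39 genes were taken by symbol from a table of 48526 genes, and all 39 were found. They comprised 22 genes of intraflagellar transport and the Bbs family, 8 genes of the transition zone and inversin compartment, and 9 genes of motile or node cilia. The rule that selects them names genes by symbol and uses no measured value.

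The libraries came from 4 wild-type C57bl6/J embryos, all male, at stage E8.5f. The heart field of each embryo, which holds the progenitors that feed the heart tube, was cut out without the heart and the back and split along the midline. Each side gave 1 poly-A library, so that 4 left libraries stood against 4 right libraries, paired by the embryos L29-3, L43-5, L46-8 and L49-3. There was no treatment or mutant, and each side of an embryo was measured once.

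The primary cilium is an antenna of most vertebrate cells, built from microtubules and used to read Hedgehog and other signals. Intraflagellar transport trains carry building blocks along it, the BBSome moves membrane proteins, and the transition zone gates its base. Left-right asymmetry begins at the node, where motile cilia drive a leftward flow and immotile cilia respond through polycystin channels, and loss of many of these genes gives heterotaxy with heart defects in mice and humans.

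The libraries held between 1147446 and 3520753 counted reads, and a gene without any read could have reached up to 0.852 to 2.61 CPM by counting error alone. The heart field factor *Isl1* lay between 91.6 and 169.5 normalized counts, that is, reads divided by the DESeq2 size factor of the library, in the 8 libraries. The node markers *Noto*, *Dand5* and *Nodal* did not exceed 4.86 normalized counts in any library. Of the multiciliated cell regulators, *Mcidas* had 0 reads in total and *Ccno* a mean of 0.183 normalized counts. The summed neural tube markers ranged from 104.2 to 453.6 on the left and from 212.9 to 601.6 on the right, and those of the notochord and floor plate from 57.8 to 168.2 and from 76.8 to 184.5. Those of the foregut endoderm ranged from 320.2 to 401.6 on the left and from 257.6 to 485.3 on the right. In bulk tissue, fewer cells of a type and less RNA per cell cannot be told apart.

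The machinery shared by all cilia was present at moderate levels on both sides, whereas most genes of the motile axoneme were close to 0. By the study's filter of at least 20 normalized counts in at least 4 libraries, 29 of the 39 genes were kept (74.4%), against 42.5% of the 21760 protein-coding genes. The filter kept 20 of 22 intraflagellar transport and Bbs genes, 6 of 8 transition zone genes and 3 of 9 motile or node cilia genes. The genes below it were *Bbs5*, *Bbs9*, *Nek8*, *Anks6*, *Dnah5*, *Dnah9*, *Dnah11*, *Ccdc39*, *Foxj1* and *Pkd1l1*. For this filter the study regarded DESeq2-normalized counts under 20 as background. For its plots it gave a lower background level of 5.6 normalized read counts, set from marker genes, without naming the scale. Applied here to DESeq2-normalized counts, 30 of the 39 genes were above 5.6 in all 8 libraries.

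**Figure D1:**
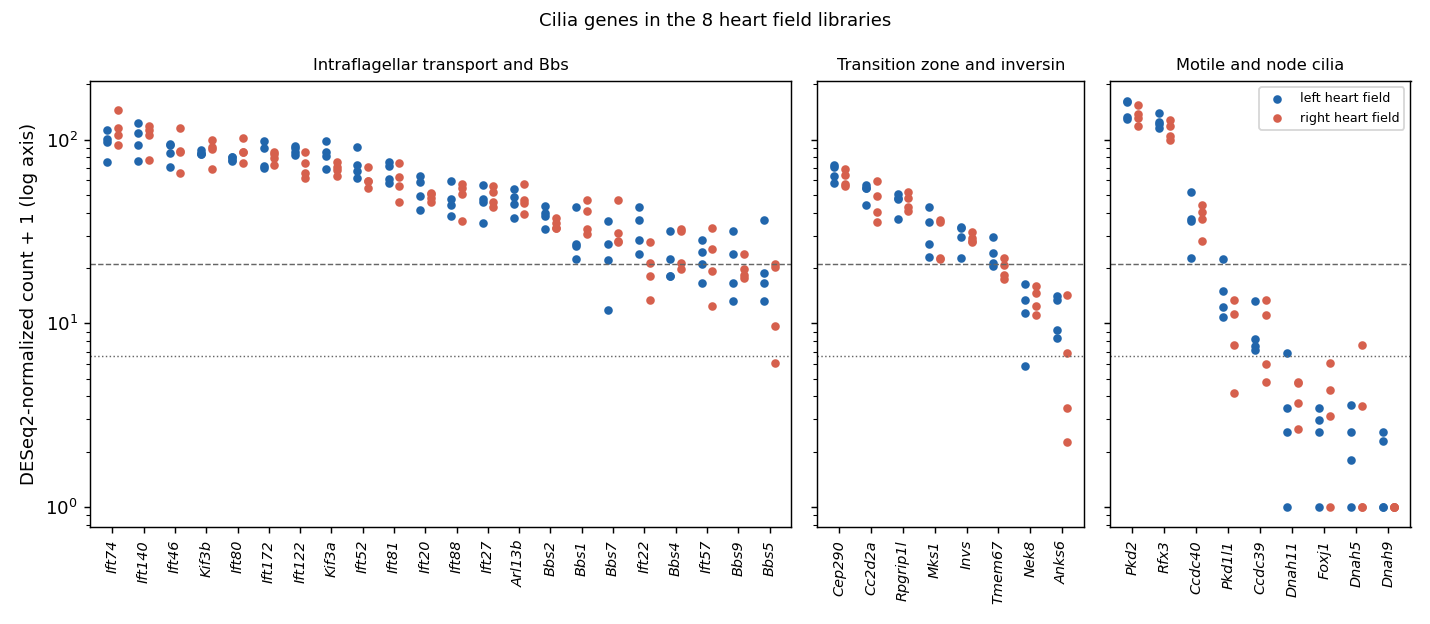
DESeq2-normalized counts plus 1 on a log axis for the 39 genes in 3 panels, 1 point per library, blue for the left and red for the right heart field; the dashed line marks 20 normalized counts and the dotted line 5.6. The intraflagellar transport and Bbs genes lay mostly above the dashed line, whereas 6 of the 9 motile or node cilia genes lay below it in at least 7 of 8 libraries.

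Levels of different genes were compared per length, as normalized counts per kilobase of merged exons, scaled, as TPM is, to the same total in each library. On this scale the median was 17.2 for the intraflagellar transport and Bbs genes, 4.71 for the transition zone and inversin genes and 1.76 for the motile and node cilia genes. With the longest coding transcript as length the medians were 18.2, 7.08 and 1.78, in the same order. By merged exons, the median was 8.93 for the 5 genes of the transition zone proper and 3.66 for the 3 inversin compartment genes. The median over protein-coding genes was 3.18, and 33.7 over the 9744 genes that passed the filter.

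Among the intraflagellar transport genes, *Ift74*, a subunit of the core of the IFT-B train that binds tubulin together with Ift81, had the highest level per length, 64.3, with a range of 46.4 to 83.3 over the libraries. Its normalized counts in L29-3, L43-5, L46-8 and L49-3 were 99.7, 95.8, 74.9 and 111.5 on the left and 105.2, 92.3, 114.2 and 144.6 on the right. The sides overlapped, and L49-3 had the highest value of both.

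*Ift20*, an IFT-B subunit that also sits at the Golgi, followed per length with 54.2 and a range of 39.7 to 69.4, which overlapped that of *Ift74*. Its normalized counts were 48.6, 58.0, 62.7 and 40.3 on the left and 47.0, 50.2, 49.5 and 44.9 on the right. The left values enclosed the right ones. The next genes in this order were *Ift52* at 38.5, *Kif3a* at 34.6, *Ift27* at 26.6 and *Kif3b* at 24.8 per length, *Kif3a* and *Kif3b* encoding motor subunits of kinesin-2. With the longest coding transcript as length, *Ift27*, a Rab-like GTPase, was at 55.7 and stood above *Ift20* at 53.5.

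The 11 genes of the IFT-B complex, which drives transport towards the tip, lay between 10.8 and 64.3 per length and all passed the filter. *Ift122* and *Ift140* of the IFT-A complex, which serves the return transport and the entry of membrane receptors, lay at 12.5 and 20.1. *Arl13b*, a GTPase of the ciliary membrane required for Hedgehog signaling, lay at 14.7.

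The 6 genes of the BBSome were lower, with a median of 7.71 per length and a range of 5.20 to 17.7, against a median of 20.01 for IFT-B. By the longest coding transcript these medians were 12.0 and 25.0. *Bbs9* had the lowest level of the group, 5.20, and normalized counts of 30.8, 22.8, 12.2 and 15.5 on the left and 17.3, 18.7, 22.8 and 16.6 on the right. It reached 20 in 3 libraries only and was not tested between the sides.

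In the transition zone group, *Mks1* and *Cc2d2a*, both of the protein module mutated in Meckel syndrome, were the highest per length at 12.0 and 11.6. *Mks1* had normalized counts of 25.9, 34.6, 22.0 and 41.8 on the left and 34.7, 21.3, 35.5 and 21.6 on the right, and the direction between the sides changed from embryo to embryo. *Cc2d2a* had 43, 53.5, 53.7 and 55.7 on the left and 34.7, 58.2, 39.3 and 48.2 on the right, with overlap of the sides.

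*Cep290*, which links microtubules to the membrane at the ciliary base, *Rpgrip1l* and *Tmem67*, a membrane receptor, lay at 8.93, 4.99 and 4.43 per length. The 3 genes of the inversin compartment, a segment next to the transition zone that is needed for normal laterality, lay between 2.45 for *Anks6* and 4.10 for *Invs*, with *Nek8* at 3.66. *Anks6*, an ankyrin repeat protein that activates the kinase Nek8, had 7.30, 13.0, 8.14 and 12.4 normalized counts on the left and 2.48, 5.87, 1.27 and 13.3 on the right. Left was above right in 3 of 4 embryos, and these values rested on 1 to 20 reads per library. *Anks6* was too low for the main test, and in a fit without the filter its log2 difference was 1.04 (edgeR adjusted p = 0.997).

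Of the motile and node cilia genes, the transcription factor *Rfx3* and the polycystin channel *Pkd2*, both also used by immotile cilia, had the highest mean normalized counts of all 39 genes, not corrected for their long exons. *Rfx3*, which activates ciliary genes and is required for node cilia, had 123.2, 114.1, 120.5 and 137.8 normalized counts on the left and 104.0, 98.2, 118.0 and 126.3 on the right. The left value was higher in each of the 4 embryos, and the ranges of the sides overlapped. *Pkd2* had 160.5, 132.3, 159.5 and 128.5 on the left and 152.3, 116.9, 137.0 and 129.6 on the right, higher on the left in 3 of 4 embryos. *Pkd1l1*, the partner of Pkd2 in the node, had 11.3, 21.5, 9.77 and 13.9 on the left and 12.4, 3.20, 10.2 and 6.65 on the right, and it was below *Pkd2* in every library. Its left library of L43-5 was the highest and its right library of the same embryo the lowest, and in a fit without the filter its log2 difference was 0.97 (edgeR adjusted p = 0.996). Per length, *Pkd2* lay at 22.6, *Rfx3* at 17.5 and *Pkd1l1* at 2.42.

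The axonemal rulers *Ccdc39* and *Ccdc40*, whose products act as a pair to set the spacing of the axonemal repeat, were unequal. *Ccdc40* lay at 9.89 per length, with a range of 5.41 to 14.8, and *Ccdc39* at 1.76, with a range of 0.785 to 2.75, so that these ranges did not overlap. *Ccdc40* had normalized counts of 51.1, 35.2, 35.8 and 21.7 on the left and 27.2, 35.8, 39.3 and 43.2 on the right. *Ccdc39* had 6.49, 7.17, 12.2 and 6.19 on the left and 12.4, 10.1, 3.81 and 4.99 on the right. For both genes the sides overlapped. *Ccdc39* shares 1256 bases of exons with *Ttc14* on the opposite strand, a gene with 111.5 to 179.5 normalized counts, and their reads cannot be told apart in that stretch unless the counting used the strand.

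*Foxj1*, the regulator that commits a cell to motile cilia, had 0, 1.96, 2.44 and 1.55 normalized counts on the left and 0, 2.13, 5.08 and 3.32 on the right, from at most 4 reads in a library. All of these values were below 5.6. The outer arm dynein heavy chains, the motors of the ciliary beat, were as low, with 12 reads over the 8 libraries for *Dnah5*, 3 for *Dnah9* and 25 for *Dnah11*.

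*Dnah11*, the motor mutated in the classical mouse model of random situs, had 0, 5.87, 2.44 and 1.55 normalized counts on the left and 3.71, 2.67, 3.81 and 1.66 on the right. *Dnah5* had 0, 2.61, 0.814 and 1.55 on the left and 0, 0, 2.54 and 6.65 on the right. *Dnah9* was found on the left alone, with 2 reads in L43-5 and 1 in L49-3, while its floor of 3 reads in the other libraries lies above these counts. No side difference in the 3 dyneins was detectable at this depth. *Dnah11* shares 642 bases of exons with *Cdca7l* on the opposite strand, which had 79.4 to 118.0 normalized counts.

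**Figure D2:**
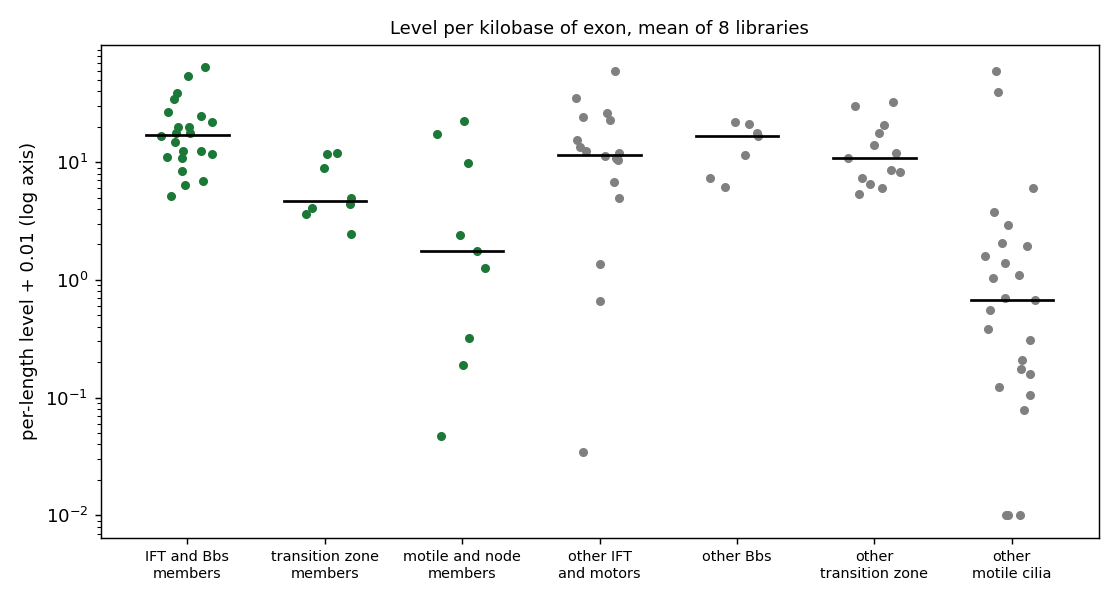
Mean level per kilobase of merged exons over the 8 libraries, plus 0.01, on a log axis, with 1 point per gene and a line at each median; the 3 groups examined here are green and other cilia genes are grey. The median was 17.2 in the intraflagellar transport and Bbs genes and 1.76 in the motile and node cilia genes, and the other motile cilia genes had a median of 0.669.

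In 70 other cilia genes listed for the comparison, the genes of motile cilia again had the lowest median of the 4 lists described here. The 18 other intraflagellar transport and motor genes had a median of 11.6 per length, the 7 other BBSome and Bbs genes 16.5, the 13 other transition zone genes 10.9 and the 25 other genes of motile cilia 0.669. The lower level of the BBSome than of IFT-B among the 39 genes was thus not repeated between the first 2 of these lists. Of these 25, 11 had fewer than 10 reads over the 8 libraries, and *Rsph4a*, a radial spoke gene, and the multiciliogenesis regulators *Mcidas* and *Gmnc* had none. The 3 of the 25 that passed the filter were *Dnaaf2*, *Dnaaf5* and *Dnal1*, which were singled out after their values were seen. *Dnaaf2* and *Dnaaf5* encode factors that assemble dynein arms in the cytoplasm, with 65.6 to 101.7 and 105.6 to 137.0 normalized counts.

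To ask whether cilia genes differed between the sides, a paired fit over the 9744 genes that passed the filter was made with edgeR's quasi-likelihood method. The study's threshold asked for a fold of 1.2 or more and a p, before adjustment, not above 0.05. It was passed by 1 of the 29 tested cilia genes (3.45%), *Ift22*, while 3.05% of all tested genes passed it, so that the share among cilia genes was near the background. After Benjamini-Hochberg adjustment over all tested genes edgeR called none of the 29 (lowest adjusted p = 0.987), while 0.0103% of all tested genes were called. At an unadjusted p under 0.05, edgeR found 1 of the 29, DESeq2 0 and limma-voom 2, and neither of the latter tools called a cilia gene after adjustment. The study's threshold was passed by the same numbers of cilia genes, and by 297, 59 and 301 of all 9744 tested genes. Leaving out L43-5 or L49-3 brought the number of cilia genes past the threshold to 2, and leaving out L29-3 exchanged *Ift22* for *Bbs7*.

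*Ift22*, a Rab-like GTPase of the IFT-B complex, had 42.2, 27.4, 22.8 and 35.6 normalized counts on the left and 12.4, 17.1, 20.3 and 26.6 on the right. The left was higher in 4 of 4 embryos, by far the most in L29-3, and the ranges of the sides overlapped. The means were 32.0 ± 8.61 and 19.1 ± 5.97 (SD, n = 4). The log2 difference, left minus right, was 0.75 with a standard error of 0.28, or 1.68-fold. Its p was 0.0214 before and 0.987 after Benjamini-Hochberg adjustment in edgeR's quasi-likelihood test, and an exact two-sided sign-flip permutation test over the 4 embryos gave p = 0.125, the smallest it allows. Without L29-3 the log2 difference was 0.45, without L43-5 it was 0.78, and DESeq2 gave 0.74 over all embryos. In each of these the gene no longer passed the threshold.

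The BBSome gene *Bbs1*, a gene often mutated in Bardet-Biedl syndrome, had the next largest difference in its group, in the other direction. Its normalized counts were 25.9, 21.5, 25.2 and 41.8 on the left and 29.7, 45.9, 31.7 and 39.9 on the right. The right was higher in 3 of 4 embryos, with the widest gap in L43-5 and overlap of the sides. The log2 difference was -0.45 (95% interval -0.97 to 0.07, edgeR adjusted p = 0.987), and -0.16 without L43-5.

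In the transition zone group *Tmem67* had the largest log2 difference, 0.26 (95% interval -0.30 to 0.82), and *Cc2d2a* followed with 0.17 (-0.21 to 0.55). Without L29-3 that of *Tmem67* was 0.11, and that of *Cc2d2a* was 0.087 without L46-8 and 0.33 without L43-5. *Tmem67* had 28.4, 19.6, 20.3 and 23.2 normalized counts on the left and 17.3, 19.7, 16.5 and 21.6 on the right. L29-3 left stood highest, and the sides overlapped.

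In the motile and node group the largest log2 differences of tested genes were 0.16 for *Rfx3* (95% interval -0.08 to 0.39) and 0.12 for *Pkd2* (-0.10 to 0.34), neither past the threshold. The log2 difference of *Ccdc40* was 0.01 (-0.55 to 0.58), with L29-3 and L49-3 in opposite directions.

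**Figure D3:**
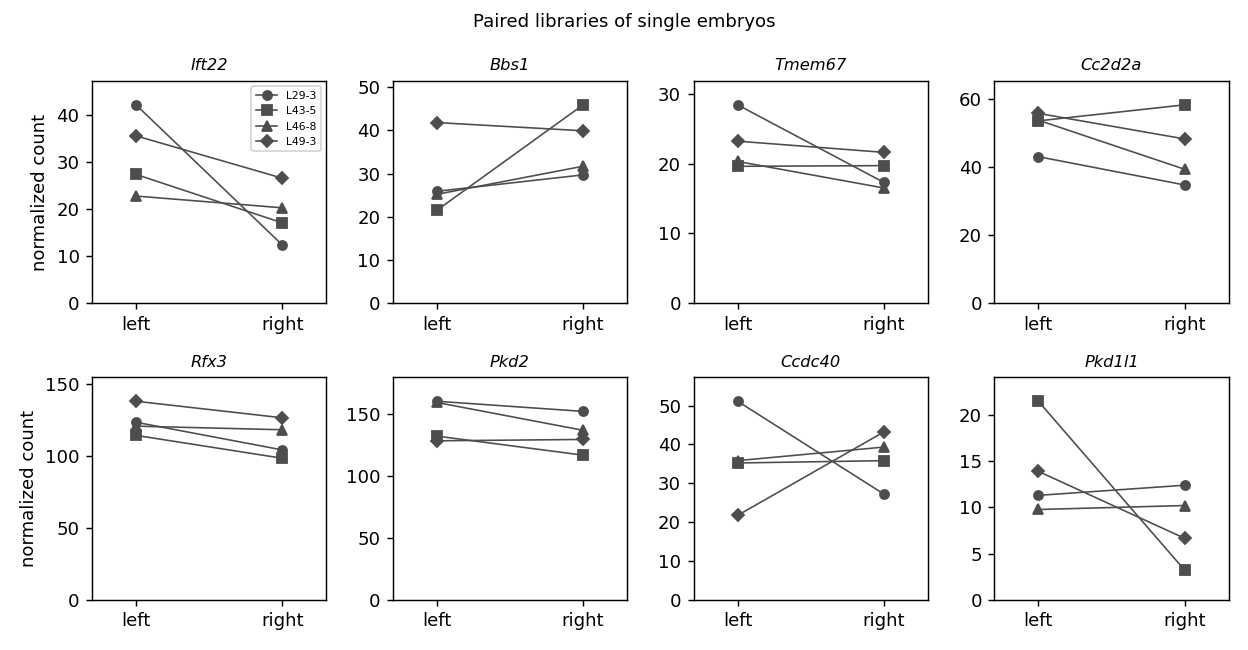
Normalized counts of 8 cilia genes in the left and right library of each embryo, with a line joining the libraries of 1 embryo. The lines of *Ift22* and *Rfx3* fell from left to right in all 4 embryos, while those of *Ccdc40* and *Bbs1* crossed.

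By group, the tested intraflagellar transport and Bbs genes had a median log2 difference of -0.00, with 9 higher on the left and 11 higher on the right, 1 past the threshold. The 6 tested transition zone genes had a median of 0.12, with 5 higher on the left and none past the threshold, and the 3 tested motile and node genes a median of 0.12, all higher on the left and none past the threshold. The median over all tested genes was -0.00, and 48.6% of them were higher on the left. The summed normalized counts of all 39 genes ranged from 1755 to 1895 on the left and from 1694 to 1904 on the right.

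The precision limited what could be seen. The 95% intervals lay within a 2-fold difference in either direction for 27 of the 29 tested genes, the exceptions being *Ift22* and *Bbs7*, and within 1.5-fold for 21. Over all tested genes these shares were 97.1% and 74.2%. The direction was the same in all 4 embryos for 6 of the 29, or 20.7%, against 12.7% of all tested genes. All 6 were higher on the left and none on the right: *Ift22*, *Ift52*, *Ift122*, *Kif3a*, *Cep290* and *Rfx3*. Whether this exceeded the share over all genes was not tested.

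**Figure D4:**
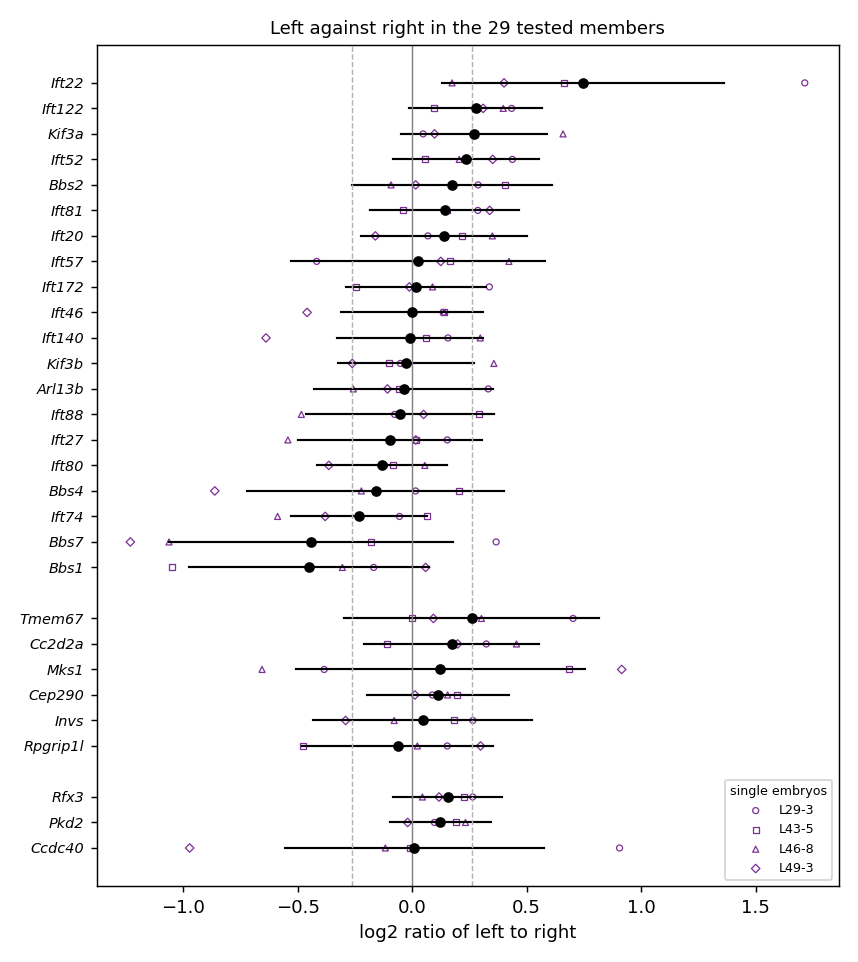
Log2 ratio of left to right for the 29 tested cilia genes in their 3 groups, with filled points and bars for the edgeR estimate and its 95% interval, open symbols for single embryos, and dashed lines at a fold of 1.2. The interval of *Ift22* alone excluded 0.

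Beside these differences, 2 neural tube markers passed the study's threshold towards the right. *Sox1* had 66.5, 45.6, 6.51 and 100.6 normalized counts on the left and 52.0, 85.4, 82.5 and 196.1 on the right, and *Pax6* had 70.5, 50.9, 30.1 and 109.9 against 39.6, 126.5, 102.8 and 191.1. Both were higher on the right in 3 of 4 embryos, with the left library of L46-8 the lowest of all. All 4 markers of the list were higher on the right in the fit, with a median log2 difference of -0.56. Of the 4, these 2 passed, and 0 were called after Benjamini-Hochberg adjustment. Of all 9744 tested genes, 138 passed towards the right. The median log2 ratio of the 4 markers was 0.34, -0.62, -1.75 and -0.60 in L29-3, L43-5, L46-8 and L49-3. Between embryos, all 4 had an unadjusted p under 0.05 in edgeR's quasi-likelihood F-test, against 9.99% of all tested genes, and 0 were called after adjustment. The part of neural tissue in the values of the cilia genes was not tested. The log2 difference of *Ift22* was 0.92 without L46-8 and 0.45 without L29-3. These are values of 1 gene and were not a test of that part.

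Of the 70 other cilia genes, 36 were tested with edgeR. None passed the study's threshold in either direction, against 3.05% of all tested genes, and with 36 genes 0 is near that share. None had an unadjusted p under 0.05 with edgeR, DESeq2 or limma-voom. With edgeR 1 gene passed the threshold in each of 3 alternatives, *Drc1* without the filter, *Lztfl1* without the pairing and *Iqcb1* without L46-8. Of all genes, 687 of 23873, 233 of 9744 and 388 of 9803 passed in these fits, in the same order. In the main fit the log2 differences of the 36 tested genes ranged from -0.39 to 0.27, with a median of 0.05.

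Embryos were compared in the same fit, with the side as covariate. None of the 29 tested cilia genes differed between embryos after Benjamini-Hochberg adjustment in edgeR's quasi-likelihood F-test (lowest adjusted p = 0.552), while 0.174% of all tested genes did. At an unadjusted p under 0.05 there were 0 of 29 with edgeR, DESeq2 and limma-voom alike, against 9.99% of all tested genes with edgeR. The lowest value belonged to *Ift57*, an IFT-B subunit, which had 23.5, 27.4, 15.5 and 20.1 normalized counts on the left and 32.2, 24.5, 11.4 and 18.3 on the right, lowest on both sides in L46-8.

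RFX factors bind the X-box, a sequence of inverted arms found in promoters of many ciliary genes. RefSeq promoters of build GRCm38.p6, reaching from 250 bases before to 50 bases after the start, were matched by symbol for 33 of the 39 genes. *Foxj1*, *Ift80*, *Ift81*, *Ift122*, *Anks6* and *Tmem67* were not matched. They were searched on both strands for the arms GTNNCC and NGNAAC separated by AT, and in a looser form by any 2 bases. No other motif was searched.

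The stricter form was in 0 of the 33 promoters (95% exact Clopper-Pearson interval 0 to 10.6%) and in 0.585% of all 32851 promoters. The looser form was in 6 of the 33, or 18.2% (6.98 to 35.5%), against 2.17% of all promoters and 2.51% of the 9533 promoters of the genes tested between the sides. Of the 66 promoters of the other cilia genes, 15 held the looser form (22.7%) and 5 the stricter one (7.58%). The 6 genes were *Ift22*, *Bbs7*, *Ift57*, *Mks1*, *Bbs4* and *Bbs1*, and none was a motile or node cilia gene, of which 8 were searched.

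Stretches around the matches before the start are shown for 4 of the 6, with the matched bases in capitals, in the direction of transcription, so that the arms can be compared. *Ift22* is shown for its side difference and held 2 matches, and the others held 1 match each.
*Ift22*, chr5:136908069-136908148, plus strand: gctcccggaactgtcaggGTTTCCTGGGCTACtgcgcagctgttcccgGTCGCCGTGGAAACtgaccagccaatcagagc
*Bbs7*, chr3:36613479-36613528, minus strand: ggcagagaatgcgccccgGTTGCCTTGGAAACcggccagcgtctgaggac
*Ift57*, chr16:49699189-49699238, plus strand: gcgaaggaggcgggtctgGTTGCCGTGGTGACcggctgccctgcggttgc
*Mks1*, chr11:87853173-87853214, plus strand: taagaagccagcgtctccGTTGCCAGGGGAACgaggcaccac
With the start as base 0, the matches of *Ift22* lay at -63 to -50 and -33 to -20, that of *Bbs7* at -121 to -108, that of *Ift57* at -87 to -74 and that of *Mks1* at -24 to -11. The matches of *Bbs7* and *Mks1* could be read on both strands. The first match of *Ift22* and that of *Ift57* fitted the searched arms only on the strand opposite to the one shown. The log2 differences between the sides of the 6 genes ran from -0.45 for *Bbs1* to 0.75 for *Ift22*, of which that of *Ift22* alone passed the study's threshold. A match describes the letters of the promoter and is not evidence of binding in this tissue.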

How the data were processed

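Gene counts of 8 libraries (4 left, 4 right) were analysed. The authors aligned reads with HISAT2 on GRCm38, left out duplicates, and assigned what remained to genes by featureCounts. The deposited values are raw counts. Whether featureCounts used the strand, which the kit keeps, is not given in the sources used here, nor are the versions of these tools and the annotation release. Identifiers were matched to symbols of GENCODE vM21 for 48144 of 48526 genes. Genes reaching 20 DESeq2-normalized counts in 4 or more libraries were tested with edgeR 4.0.16 (R 4.3.3) by the quasi-likelihood test with TMM factors, with embryo as a block and side as the contrast, and Benjamini-Hochberg adjustment over all 9744 genes. limma 3.58.1 (voom) and DESeq2 1.42.0 were alternatives. The edgeR fit with the embryo block, DESeq2 and limma-voom were run on simulated data, and the other alternative fits were not.

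Both sides of an embryo come from 1 animal, which pairs the libraries. The correlation of same-embryo deviations from the side means was 0.167, 0.187, -0.022 and 0.431, and between different embryos it ranged from -0.388 to 0.253, so that the pairing rests on the labels. No 2 libraries agreed within sampling noise (lowest chi-square per degree of freedom 1.93). The p-values rest on 4 embryos.

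Per-length levels used merged exons of GENCODE vM21. Of the 39 genes, 9 overlap exons of a gene on the opposite strand, and 16 hold stretches of at least 100 bases with at least 90% identity to exons of another counted gene, whose reads may be split.

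Per-library values are given for all motile and node genes, for the 2 highest and the lowest gene per length of each other group, for genes past the study's threshold or an adjusted p under 0.05, and for the 2 largest differences of each group. Other cilia genes and markers are named where they pass the threshold. The genes, lists and rules were chosen with earlier results of these data known.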

Additional observations from a re-analysis of the deposited data

Results flagged for a closer look

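Over the 39 genes, the highest and lowest of the 4 libraries of a side were compared with the other 3 in 78 groups, of which 1 stood apart. *Ccdc39* had 12.2 normalized counts in the left library of L46-8, with 6.19 to 7.17 in the other left libraries, a gap of 0.837 of the whole range, above Dixon's 95% critical value. Chance alone flags about 1 in 20 groups. The value rested on 15 reads.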

How the results depend on the processing

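The number of cilia genes past the study's side threshold, 1 in the main test, was 0 with DESeq2, 2 with limma-voom (*Bbs1* joined, at -0.53) and 3 of 39 without the filter on low counts (*Anks6* and *Pkd1l1* joined). Of all 9744 genes, 297 passed it in the main test, 59 with DESeq2 and 301 with limma-voom, and 687 of 23873 without the filter. The number of cilia genes past it was 1 to 2 when single embryos were left out: *Bbs7* alone without L29-3 (-0.74), *Ift74* (-0.35) and *Ift122* (0.38) without L43-5, *Ift22* alone without L46-8, and *Ift22* and *Bbs1* (-0.59) without L49-3. Of all genes, 354 of 9818, 328 of 9309, 388 of 9803 and 291 of 10166 passed in these fits, in the same order. For the pairing, with no replicate block *Ift22* alone of the cilia genes passed again, beside 233 of all 9744 genes. No alternative run called a cilia gene by adjusted p for side or embryo. The group medians moved by less than their spread between embryos. Among single genes with small differences, *Ift46* turned to 0.011 with library size alone, 0.019 with limma-voom and 0.013 without the filter, *Ift140* to 0.0057, 0.016 and 0.0070, *Ift57* to -0.015 without the block and *Ccdc40* to -0.031 with DESeq2. Leaving out single embryos gave -0.17 to 0.050 for *Ift27*, -0.061 to 0.12 for *Ift46*, -0.059 to 0.22 for *Ift57*, -0.19 to 0.096 for *Ift88*, -0.087 to 0.14 for *Ift140*, -0.084 to 0.14 for *Ift172*, -0.32 to 0.0091 for *Bbs4*, -0.14 to 0.032 for *Kif3b*, -0.15 to 0.040 for *Arl13b*, -0.15 to 0.14 for *Rpgrip1l*, -0.13 to 0.39 for *Mks1*, -0.025 to 0.12 for *Invs*, -0.29 to 0.22 for *Ccdc40* -0.59 to -0.16 for *Bbs1* and 0.45 to 0.92 for *Ift22*. On the TMM-normalized CPM scale, 19 rather than 29 genes reached 20 in 4 libraries. Values were lower on that scale (mean of *Ift20* 26.5 CPM against 50.1 normalized counts), so that 20 was a stricter cut there. The looser X-box raised the share of promoters from 0 to 18.2%. The last choices were added after seeing the data: the background of tested genes for the X-box, and levels by the longest coding transcript, which gave *Ift74* 59.1, *Ift27* 55.7, *Ift20* 53.5 and *Ift80* 24.3 rather than 10.8. The causes were not tested.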
